A study of Mus musculus with 14 samples.

Results

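Semaphorins, ephrins, netrins and Slits are guidance cues, secreted or held on cell surfaces, that steer growing axons and, in blood vessels, endothelial cells, smooth muscle cells and leukocytes. The genes described here are all rows of the count table whose symbol begins as a semaphorin, plexin, Eph receptor, ephrin, netrin, Robo, Slit or Unc5 gene: 68 of 22430 genes. Of these, 58 had enough counts to be tested among 14269 genes, and the other 10 did not. Unc50, a Golgi protein gene, and Unc5cl were caught by their names only and belong to no guidance family.

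RNA was sequenced from the intima of the mouse thoracic aorta, the inner layer of the vessel wall, which was lysed by running QIAzol through the lumen. Each of the 14 libraries was a pool of lysates from 12 to 14 mice of 1 genotype, so that p-values measure the spread between pools and not between single mice. All mice lacked apolipoprotein E (Apoe-/-) and are a model prone to atherosclerosis; no age is given in the labels. Ubiquitous progerin pools (n = 3) came from Apoe-/- LmnaG609G/G609G mice, in which every cell that uses Lmna can make progerin. Progerin is the shortened lamin A that underlies Hutchinson-Gilford progeria. The ubiquitous progerin pools were set against pools from Apoe-/- Lmna+/+ mice (n = 4), the wild-type pools. VSMC progerin pools (n = 3) came from Apoe-/- LmnaLCS/LCS SM22Cre mice, in which Cre under the SM22α promoter, used for vascular smooth muscle cells (VSMC), switches on progerin in mice that otherwise make lamin C only. Their controls (n = 4) were pools from Apoe-/- LmnaLCS/LCS mice without Cre, which carry the same altered Lmna alleles; they are called LCS pools here and lamin C-only control in the plots. Other cells that use the SM22α promoter would switch too.

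The library totals ran from 27169784 to 35692385 estimated counts. Levels are given as TMM-scaled CPM, the count per unit of library size, and, only where genes are compared with each other, as CPM per kb of exon. Differences are log2 fold changes ± SE from edgeR's quasi-likelihood test over all 14 libraries, with Benjamini-Hochberg adjustment over the 14269 genes. A gene was called, and is said to have risen or fallen, at an adjusted p under 0.05. Summed over 8 markers, endothelial RNA stood at 22840 to 24644 CPM in wild-type pools, 20303 to 21369 in ubiquitous progerin, 21844 to 23921 in LCS pools and 21415 to 22354 in VSMC progerin. Pecam1 and Vwf make up most of that sum, and none of the 8 was at 0 in any group. Of the 8, 1 rose with ubiquitous progerin (Egfl7 by 0.24 on the log2 scale). There 5 fell (Tek by 1.30, Cdh5 by 0.62, Vwf by 0.51, Esam by 0.35 and Tie1 by 0.31), and Pecam1 (0.04) and Kdr (-0.23) were not called. With VSMC progerin 4 rose (Tie1 by 0.82, Kdr by 0.75, Vwf by 0.22 and Esam by 0.17). In that model 3 fell (Pecam1 by 0.36, Tek by 0.23 and Egfl7 by 0.20). Macrophage markers (8 genes) summed to 74.2 to 151 and 961 to 1512 CPM in the first pair of groups and to 68.1 to 250 and 716 to 867 CPM in the second, and all 8 were higher with progerin in both. Fibroblast markers (6 genes) stood at 414 to 450 CPM in wild-type pools, 342 to 391 with ubiquitous progerin, 370 to 617 in LCS pools and 1210 to 1421 with VSMC progerin. The lower sum with ubiquitous progerin came from Pi16 (207 to 59.0 CPM, means), which fell. The other fibroblast markers had higher means there and were not called. With VSMC progerin 4 fibroblast markers rose and 0 fell. For smooth muscle markers (7 genes) the sums were 491 to 829, 934 to 982, 397 to 560 and 316 to 382 CPM. The higher sum with ubiquitous progerin came from Tagln (258 to 774 CPM, means); it was the 1 marker that rose, while Myh11, Acta2 and Smtn fell, and with VSMC progerin 3 fell. In bulk RNA, fewer cells of a type and less RNA per cell cannot be told apart.

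Each cue acts through its own receptors. Class 3 semaphorins are secreted and signal through plexins, mostly with a neuropilin as the binding partner, while Sema3e binds Plxnd1 directly. Semaphorins of the higher classes are mostly membrane proteins. Ephrins are held on the cell surface and bind Eph receptor tyrosine kinases on the neighbouring cell. Ephrin-B2 (Efnb2) marks arteries and its receptor Ephb4 veins. Netrins bind Unc5 receptors, Dcc and Neo1, and Slits bind Robo receptors. Unc5b and Robo4 are the members of these families known from endothelium.

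In wild-type intima the guidance genes were led by secreted netrins and semaphorins and by Efnb2, and several families rested mostly on 1 member. Per kb of exon the highest were Ntn1 (105 ± 8.80 CPM per kb, SD, n = 4), Sema3f (77.8 ± 6.24), Efnb2 (67.3 ± 2.96), Ntn4 (57.9 ± 4.51), Plxnd1 (46.4 ± 3.18), Efna5 (42.3 ± 1.64), Sema3g (40.4 ± 9.11), Ephb4 (39.4 ± 2.13) and Efna1 (34.6 ± 2.09). Efna5, Sema3g and Ephb4 followed each other within 1 SD, whereas Ntn1 and Sema3f each led the next gene by more than their SD. Of the summed CPM per kb of a family, Efnb2 gave 96.8% of the B ephrins, Unc5b 95.1% of the Unc5 receptors, Ephb4 89.2% of the EphB receptors, Robo4 87.6% of the Robos, Sema3f 64.2% of the class 3 semaphorins, Ntn1 63.6% of the netrins and Epha4 47.7% of the EphA receptors. The Slits were scarce, with a family sum of 0.854 CPM per kb. Epha10 had 0 counts in all 14 libraries. A count of 0 allows up to 3 counts, or 0.0841 to 0.110 CPM in a library, by counting error only. The other 9 untested genes, Epha6, Epha8, Ephb1, Ntn5, Robo2, Robo3, Sema4f, Sema4g and Unc5cl, reached at most 0.580 CPM in any library.

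**Figure D1:**
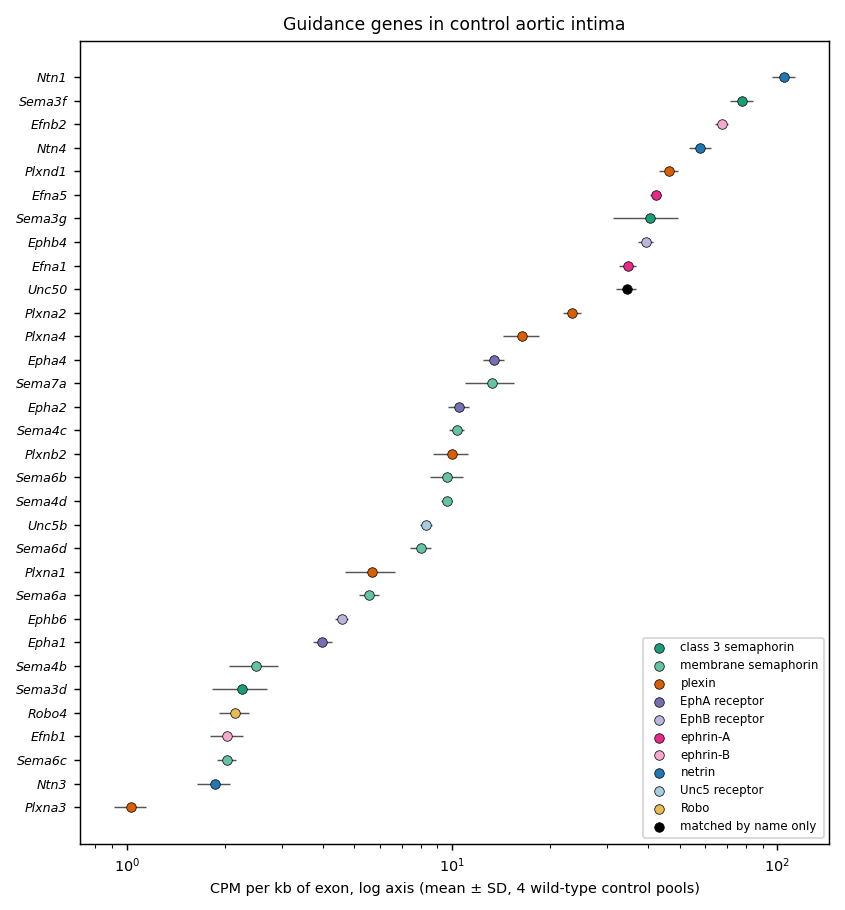
Level of each guidance gene in wild-type intima that reached 1 CPM per kb of exon, on a log axis; points are means over 4 pools, bars are SD and colours mark the gene family. Ntn1, Sema3f, Efnb2 and Ntn4 stand at the top, and Efna5, Sema3g and Ephb4 sit close together near 40.

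Guidance genes moved in both directions in each progerin model. With ubiquitous progerin 17 of the 58 tested rose and 20 fell (63.8% called), where 54.6% of all tested genes were called (26.3% higher and 28.3% lower). The median log2 fold change was -0.39 over the guidance genes and -0.00 over all. With VSMC progerin 19 rose and 11 fell (51.7%), where 42.0% of all were called (19.0% higher and 23.0% lower), and the medians were 0.15 and -0.03. The difference between the 2 effects, which share no libraries, was called for 31 guidance genes (53.4%), 8 with a higher and 23 with a lower value under ubiquitous progerin, where 44.2% of all genes were called (22.4% and 21.8%). The CPM ranges of the pools did not overlap for 17 higher and 20 lower guidance genes with ubiquitous progerin (28.2% and 28.3% of all genes) and for 19 and 12 with VSMC progerin (20.7% and 24.8%). Among the 45 tested members with a mean of at least 1 CPM over the 14 libraries, 14 rose and 20 fell with ubiquitous progerin and 15 rose and 11 fell with VSMC progerin (75.6% and 57.8% called). At the same level, 59.2% of 12510 genes were called with ubiquitous progerin (27.5% higher and 31.6% lower) and 45.1% with VSMC progerin (19.3% and 25.8%). A scarce gene that passed the count filter only through the group where it was high had to differ. Leaving out 1 pool at a time gave 13 to 17 rising and 19 to 20 falling genes in the first model, the 13 without wild-type pool 1. In the second it gave 16 to 19 and 9 to 12.

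Read together, 23 members were called in both models, 16 in the same direction and 7 in opposite directions, and the difference was called for all 7. Risen in both were 8 genes: Efna1, Plxnb1, Plxnb2, Plxnb3, Plxnc1, Sema4a, Sema6b and Unc5b (13.8% of tested members, against 7.89% of all tested genes). The ubiquitous progerin calls of Plxnb3 and Sema4a ended in 5 and 3 of the 7 fits that left out 1 pool. Fallen in both were another 8: Efna5, Efnb2, Epha1, Epha2, Epha4, Ephb6, Plxna3 and Plxna4 (13.8% against 8.63%). A set of 5 fell with ubiquitous progerin and rose with VSMC progerin, namely Sema3f, Sema3g, Plxnd1, Efnb1 and Ntn3 (8.62% against 4.27%), and Ntn4 and Plxna2 did the reverse (3.45% against 6.38%). A further 14 were called in neither model (24.1% against 30.6%), among them Robo1, the receptor that Slits are best known for, Sema3c and Sema7a. Plxnb2, Plxnb3, Sema4d, Sema6d and other members outside the rule for named genes were chosen after their values were seen.

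**Figure D2:**
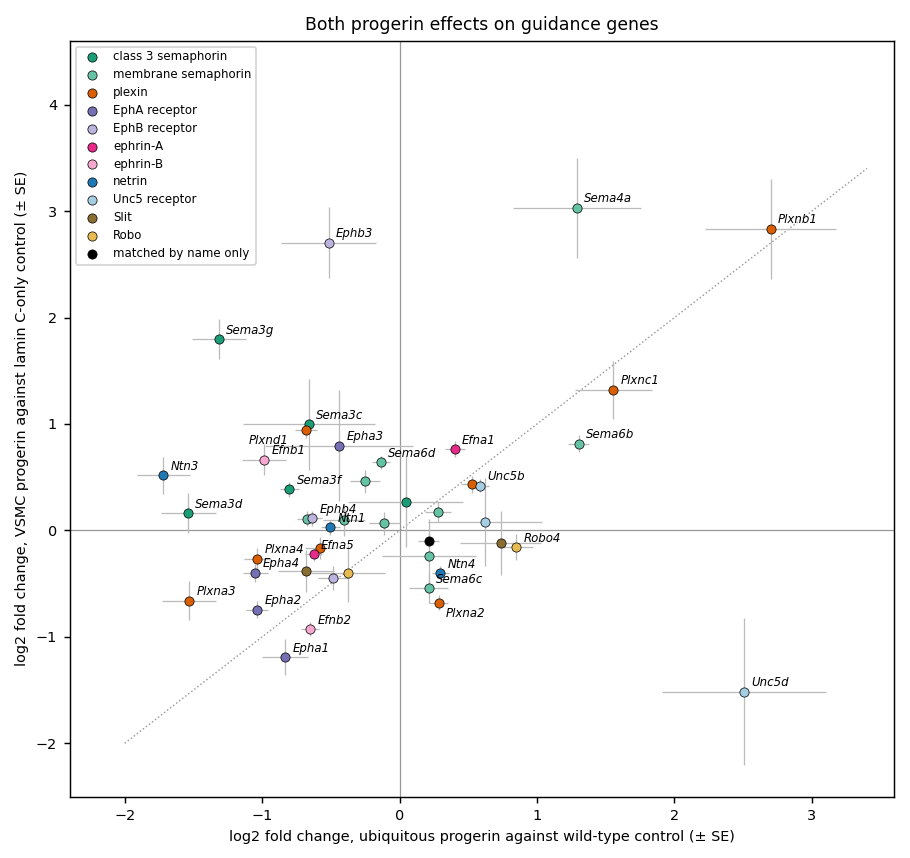
Log2 fold change (± SE) of 45 guidance genes with a mean of at least 1 CPM, in ubiquitous progerin (horizontal) and VSMC progerin (vertical) against the control of each; colours mark families and the dotted line marks equal effects. Sema3g, Sema3f, Plxnd1, Efnb1 and Ntn3 lie in the upper left, Ntn4 and Plxna2 in the lower right, Efnb2 and the EphA receptors in the lower left.

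The stretch before the start of 4 genes is shown because these genes stand for the different patterns. Sema3g and Plxnd1 both fell with ubiquitous progerin and both rose with VSMC progerin, Sema6b rose in both and Efnb2 fell in both. Each line gives the 250 bases before the RefSeq start in build GRCm38.p6, 5′ to 3′ on the gene's own strand, with capitals on any match, on either strand, to 5 motifs of factors known from endothelium: TGGGAA (RBPJ), GGAATG (TEAD), CCACCC (KLF), TGANTCA (AP-1) and TGTTTAC (FOX).
Sema3g, chr14:31217623-31217872, plus strand: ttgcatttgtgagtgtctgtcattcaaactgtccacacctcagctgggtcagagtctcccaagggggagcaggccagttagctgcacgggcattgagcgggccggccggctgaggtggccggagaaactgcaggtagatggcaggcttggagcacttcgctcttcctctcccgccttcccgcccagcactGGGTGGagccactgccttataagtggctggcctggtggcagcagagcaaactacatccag
Plxnd1, chr6:115995006-115995255, minus strand: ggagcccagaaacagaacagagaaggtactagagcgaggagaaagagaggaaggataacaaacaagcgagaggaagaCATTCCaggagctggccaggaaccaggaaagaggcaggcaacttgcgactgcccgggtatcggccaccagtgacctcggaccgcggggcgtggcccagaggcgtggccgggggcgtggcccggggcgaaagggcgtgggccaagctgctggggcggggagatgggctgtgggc
Sema6b, chr17:56140344-56140593, minus strand: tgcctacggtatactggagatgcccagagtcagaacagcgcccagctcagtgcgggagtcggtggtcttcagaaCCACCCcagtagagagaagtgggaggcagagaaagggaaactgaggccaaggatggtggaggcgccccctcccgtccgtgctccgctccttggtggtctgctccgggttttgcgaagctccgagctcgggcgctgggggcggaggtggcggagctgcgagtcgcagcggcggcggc
Efnb2, chr8:8661243-8661492, minus strand: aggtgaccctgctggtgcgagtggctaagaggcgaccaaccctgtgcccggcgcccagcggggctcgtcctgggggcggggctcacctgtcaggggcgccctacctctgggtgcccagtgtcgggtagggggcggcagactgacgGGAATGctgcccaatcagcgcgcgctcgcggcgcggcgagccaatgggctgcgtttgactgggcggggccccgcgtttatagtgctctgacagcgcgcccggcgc
Sema3g held the KLF letters at -60 to -55 and Sema6b at -176 to -171, counted from the start, while the TEAD letters stood at -173 to -168 in Plxnd1 and at -105 to -100 in Efnb2. RefSeq gave such a stretch for 59 of the 68 members, 49 of them tested. The KLF letters were found in 26 of those 49 (53.1%) and in 27.6% of all 27025 promoters of the same length; the median GC content was 65.6% and 52%. For the other motifs the shares were 16.3% and 21.5% (RBPJ), 14.3% and 12.6% (TEAD), 2.04% and 6.85% (AP-1), and none of the 49 and 3.06% (FOX). The letters of the RBPJ and TEAD motifs can overlap, and a match is a description of these letters only.

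Among the secreted class 3 semaphorins, the abundant members fell with ubiquitous progerin and 2 of them rose with VSMC progerin. Their summed level went from 121 ± 14.5 (n = 4) to 62.2 ± 1.76 CPM per kb (SD, n = 3) in the first model and from 125 ± 8.93 (n = 4) to 250 ± 40.8 (n = 3) in the second. Of the 7 tested, 1 rose and 3 fell with ubiquitous progerin (57.1% called, against 54.6% of all tested genes). With VSMC progerin 2 rose (28.6% against 42.0%), and the difference between the models was called for 4 (57.1% against 44.2%).

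Sema3g (ENSMUSG00000021904, chromosome 14, 31217860 to 31230352), a semaphorin known from arterial endothelium, stood at 157, 185, 150 and 241 CPM in wild-type pools and at 75.4, 71.1 and 74.8 CPM in ubiquitous progerin. It stood at 194, 190, 202 and 147 CPM in LCS pools and at 740, 695 and 475 CPM in VSMC progerin. All 3 ubiquitous progerin pools lay below every control pool and all 3 VSMC progerin pools above. Sema3g fell by 1.32 ± 0.20 on the log2 scale in the first model (edgeR adjusted p = 0.00015) and rose by 1.79 ± 0.19 in the second (adjusted p = 1.4e-05). The difference between these effects was -3.11 ± 0.27 (edgeR adjusted p = 3.2e-06).

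Sema3f (ENSMUSG00000034684, chromosome 9, 107681500 to 107710475), a neuropilin-2 ligand that repels endothelial cells, had 418, 383, 373 and 444 CPM in wild-type pools and 237, 238 and 220 CPM in ubiquitous progerin, ranges that lay well apart. With VSMC progerin it had 577, 593 and 504 CPM, above the 436, 440, 435 and 398 CPM of LCS pools. It fell by 0.80 ± 0.07 (edgeR adjusted p = 9.3e-09) and rose by 0.39 ± 0.07 (adjusted p = 0.00013), with a difference of -1.19 ± 0.10 (adjusted p = 8.1e-09). Because Sema3g moved further than Sema3f, their ratio per kb shifted. Its median was 0.507 in wild-type pools, 0.364 in ubiquitous progerin, 0.502 in LCS pools and 1.34 in VSMC progerin. The lowest VSMC progerin pool was at 1.08 and the highest control pool at 0.623.

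Sema3d, which acts on outgrowing vessels through neuropilin-1, had 22.9, 14.9, 17.8 and 22.2 CPM in wild-type pools and 6.21, 7.93 and 5.93 CPM in ubiquitous progerin, a fall of 1.54 ± 0.20 on the log2 scale (edgeR adjusted p = 4.9e-06). With VSMC progerin its pools (21.0, 18.8 and 11.6 CPM) spanned those of LCS pools (16.8, 16.4, 15.3 and 12.7 CPM), and the log2 difference was 0.16 ± 0.19 (adjusted p = 0.51). The 2 effects differed by -1.70 ± 0.27 (adjusted p = 6.6e-05). Sema3c, a cue known from outflow tract development, was low, at 0.663 to 1.71 CPM in wild-type pools and ubiquitous progerin. It had 1.65, 0.839, 1.98 and 4.63 CPM in LCS pools and 5.91, 4.53 and 3.18 CPM in VSMC progerin. That log2 difference, 1.00 ± 0.43, missed the threshold (edgeR adjusted p = 0.069) but passed it without LCS pool 4, the 4.63 CPM pool (1.60, adjusted p = 0.0038). The difference between the models, -1.66 ± 0.64 (adjusted p = 0.042), was no longer called in 10 of 14 fits that left out 1 pool. Sema3a was called with ubiquitous progerin at levels of 0 to 0.0635 CPM in wild-type pools and 0.273 to 0.663 CPM in ubiquitous progerin, too low for a fold.

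Of the plexins, the main receptors of semaphorins, all 9 were tested. With ubiquitous progerin 5 rose and 4 fell (100% called, against 54.6% of all tested genes). With VSMC progerin 5 rose and 3 fell (88.9% against 42.0%). Plxnb1, Plxnb2, Plxnb3 and Plxnc1 rose in both models, and Plxna3 and Plxna4 fell in both. The Plxnb3 call with ubiquitous progerin, at 0.244 to 0.630 CPM, ended with no filter (adjusted p = 0.064) and in 5 of 7 fits that left out 1 pool: wild-type pool 1, 2 or 3 or ubiquitous progerin pool 1 or 2 (0.063 to 0.14). Plxna1, a receptor of class 3 and class 6 semaphorins, fell by 0.58 ± 0.10 with ubiquitous progerin (edgeR adjusted p = 0.00010), and its VSMC progerin value was -0.17 ± 0.10 (adjusted p = 0.21). Plxna2 and Plxnd1, the most abundant plexins per kb, changed in opposite directions between the models and opposite to each other.

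Plxnd1 (ENSMUSG00000030123, chromosome 6, 115954811 to 115995005), the endothelial plexin that senses Sema3e and shear stress, had 370, 341, 317 and 327 CPM in wild-type pools and 210, 192 and 233 CPM in ubiquitous progerin. Lamin C-only control had 361, 339, 405 and 325 CPM and VSMC progerin 727, 682 and 653 CPM, so that VSMC progerin lay above all other pools. Plxnd1 fell by 0.68 ± 0.08 on the log2 scale in the first model (edgeR adjusted p = 4.6e-07) and rose by 0.94 ± 0.08 in the second (adjusted p = 6.7e-09), a difference of -1.62 ± 0.11 (adjusted p = 6.9e-10). Of the 8 endothelial markers, Tie1 (-0.31 ± 0.06 and 0.82 ± 0.06), Vwf and Esam also fell with ubiquitous progerin and rose with VSMC progerin. The others did not. Egfl7 rose and then fell (0.24 and -0.20), and Tek fell in both models (-1.30 and -0.23). Pecam1 fell with VSMC progerin only (-0.36), Cdh5 fell with ubiquitous progerin only (-0.62) and Kdr rose with VSMC progerin only (0.75). The part of endothelial RNA in these results was not tested.

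Plxna2 (ENSMUSG00000026640, chromosome 1, 194618218 to 194816869), a receptor of class 3 and class 6 semaphorins, had 429, 412, 367 and 399 CPM in wild-type pools and 478, 535 and 455 CPM in ubiquitous progerin. In VSMC progerin it had 244, 237 and 247 CPM, below the 425, 406, 365 and 359 CPM of LCS pools. It rose by 0.28 ± 0.07 (edgeR adjusted p = 0.0018) and fell by 0.68 ± 0.07 (adjusted p = 2.3e-07), with a difference of 0.96 ± 0.10 (adjusted p = 1.7e-07). The ratio of Plxnd1 to Plxna2 per kb therefore had a median of 1.99 in wild-type pools, 1.03 in ubiquitous progerin, 2.06 in LCS pools and 6.77 in VSMC progerin. The pools of the 2 progerin groups lay on either side of both controls, at 0.846 to 1.2 and 6.21 to 7.02 against 1.92 to 2.61.

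Plxna4, which pairs with neuropilins in sensory axons, had 274, 226, 221 and 206 CPM in wild-type pools and 111, 107 and 121 CPM in ubiquitous progerin. It fell there by 1.03 ± 0.10 (edgeR adjusted p = 1e-07). In the second model it had 222, 199, 228 and 199 CPM in control and 161, 164 and 204 CPM in VSMC progerin, whose highest pool lay within the control range. That fall of 0.27 ± 0.10 (adjusted p = 0.035) lost its call under RLE scaling (adjusted p = 0.063) and upper-quartile scaling (0.13) and without LCS pool 1 or 3 or VSMC progerin pool 1 or 2 (0.083 to 0.21). Plxna3, the partner of Sema3f with neuropilin-2, had 7.51, 7.18, 8.65 and 9.08 CPM in wild-type pools against 2.49, 3.34 and 2.58 CPM with ubiquitous progerin. LCS pools had 7.04, 8.61, 6.61 and 8.12 CPM against 4.11, 4.37 and 5.92 CPM with VSMC progerin. All progerin pools lay below their controls, and it fell by 1.53 ± 0.19 (adjusted p = 1.3e-06) and 0.66 ± 0.18 (adjusted p = 0.0067).

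Plxnb1, a receptor of Sema4d, went from 0.567, 0.160, 0.520 and 0.445 CPM in wild-type pools to 2.76, 3.08 and 2.44 CPM with ubiquitous progerin. It went from 0.335, 0.218, 0.380 and 0.705 CPM in LCS pools to 3.09, 1.69 and 4.04 CPM with VSMC progerin. The ranges were apart in both models, with rises of 2.7 ± 0.48 (edgeR adjusted p = 7.1e-05) and 2.83 ± 0.47 (adjusted p = 6.7e-05). Plxnc1, the receptor of Sema7a, known from leukocytes, had 1.70, 1.19, 1.30 and 2.35 CPM in wild-type pools and 4.23, 5.49 and 4.71 CPM with ubiquitous progerin. It had 2.35, 3.76, 2.44 and 3.06 CPM in LCS pools and 4.96, 9.93 and 6.84 CPM in VSMC progerin. It rose by 1.55 ± 0.28 (adjusted p = 9.7e-05) and 1.32 ± 0.27 (adjusted p = 0.00055), again with no overlap between the progerin pools and their controls. Plxnb2, the most abundant B plexin, rose from 66.7 to 86.8 CPM to 101 to 117 CPM and from 77.4 to 89.5 CPM to 112 to 114 CPM, by 0.53 ± 0.08 (adjusted p = 1.2e-05) and 0.44 ± 0.08 (adjusted p = 0.00018). The 8 macrophage markers rose in the same 2 comparisons, and their part in the plexin results was not tested.

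Neuropilins, the co-receptors, belong to the partner genes and were chosen after their values were seen. Nrp1 stood at 331 ± 44.2, 369 ± 29.1, 293 ± 29.6 and 187 ± 7.01 CPM (SD, n = 4, 3, 4 and 3) in wild-type pools, ubiquitous progerin, LCS pools and VSMC progerin. It fell by 0.65 ± 0.10 with VSMC progerin (edgeR adjusted p = 2.7e-05), where the ubiquitous progerin value was 0.16 ± 0.09 (adjusted p = 0.16), and the difference between them was 0.81 ± 0.13 (adjusted p = 7.9e-05). Nrp2 was low, at 0.977 ± 0.299, 5.37 ± 1.52, 1.92 ± 0.309 and 9.04 ± 2.72 CPM in the same order, and rose in both models by 2.45 ± 0.29 (adjusted p = 4.8e-07) and 2.23 ± 0.27 (adjusted p = 1.6e-06). In VSMC progerin the 2 class 3 ligands and Plxnd1 thus rose while Nrp1 fell, and in ubiquitous progerin the ligands and Plxnd1 fell with no call for Nrp1.

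Of the membrane semaphorins, 11 of 13 were tested. With ubiquitous progerin 4 rose and 2 fell, a share called (54.5%) near that of all tested genes (54.6%). With VSMC progerin 4 rose and 1 fell (45.5% against 42.0%). Sema6b (ENSMUSG00000001227, chromosome 17, 56123085 to 56140343), a ligand of A plexins, had 32.9, 43.8, 38.5 and 38.1 CPM in wild-type pools and 94.5, 94.7 and 94.3 CPM in ubiquitous progerin. It had 42.5, 39.2, 37.0 and 38.0 CPM in LCS pools and 65.0, 73.2 and 68.5 CPM in VSMC progerin. Neither progerin group overlapped its control, and Sema6b rose by 1.30 ± 0.08 (edgeR adjusted p = 5.4e-11) and 0.82 ± 0.08 (adjusted p = 6.5e-08), with a difference of 0.49 ± 0.11 (adjusted p = 0.0014). Its neighbour Lrg1, a secreted glycoprotein gene chosen after its values were seen, lies 1083 bases downstream on the same strand. Lrg1 rose by 3.28 ± 0.22 (edgeR adjusted p = 1.6e-07) and 6.10 ± 0.23 (adjusted p = 2e-09), with the larger rise in the other model. Lrg1 means were 5.0 CPM in wild-type pools, 48.3 in ubiquitous progerin, 4.24 in LCS pools and 291 in VSMC progerin.

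Sema4a, which acts on T cells and on endothelium through D and B plexins, had 1.52, 0.577, 0.520 and 0.984 CPM in wild-type pools and 3.17, 1.96 and 1.47 CPM in ubiquitous progerin, where the ranges overlapped. The rise of 1.29 ± 0.47 (edgeR adjusted p = 0.024) was no longer called without wild-type pool 2 (adjusted p = 0.067) or 3 (0.069) or ubiquitous progerin pool 1 (0.15). With VSMC progerin it had 6.65, 5.5 and 4.52 CPM, all above the 0.419, 0.218, 0.840 and 1.23 CPM of LCS pools, and rose by 3.03 ± 0.47 (adjusted p = 3.1e-05). Sema5b rose to 1.26, 2.48 and 2.27 CPM in ubiquitous progerin from at most 0.635 CPM in wild-type pools (2.42 ± 0.70, adjusted p = 0.0061); in VSMC progerin the value was 1.25 ± 0.70 (adjusted p = 0.17), and the difference between the models was not called (adjusted p = 0.36).

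Sema4d, the CD100 semaphorin of platelets and T cells, had 75.9, 69.5, 75.6 and 74.5 CPM in wild-type pools and 47.7, 41.6 and 49.8 CPM in ubiquitous progerin, a fall of 0.67 ± 0.07 (edgeR adjusted p = 2e-07) between ranges that lay apart. In the second model its value was 0.11 ± 0.07 (adjusted p = 0.24), and the effects differed by -0.78 ± 0.10 (adjusted p = 3.6e-06). Sema6d, a Plxna1 ligand of the developing heart, had 79.3, 77.8, 82.1 and 74.9 CPM in LCS pools and 123, 121 and 123 CPM in VSMC progerin, and rose by 0.64 ± 0.06 (adjusted p = 8.3e-08). With ubiquitous progerin the value was -0.14 ± 0.06 (adjusted p = 0.079), and the effects differed by -0.77 ± 0.09 (adjusted p = 7.2e-07). Sema6c was the membrane semaphorin that fell with VSMC progerin, from 10.2, 9.88, 14.8 and 11 CPM to 7.31, 9.12 and 7.22 CPM (-0.54 ± 0.15, adjusted p = 0.0052), and it differed between the models by 0.75 ± 0.20 (adjusted p = 0.0047).

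Few guidance genes were called between the control groups. In LCS pools against wild-type pools, 1 of the 58 rose and 0 fell by edgeR, where 0.175% of all genes were called (0.0911% higher and 0.0841% lower). DESeq2 and limma also called 1 and 0. At an unadjusted p under 0.05, 6 were higher and 2 lower (13.8% in all, against 7.37% of all genes). The ranges did not overlap for 2 higher (Ephb6 and Sema7a) and 2 lower (Ephb3 and Unc5b), 3.45% each, where 2.42% and 2.54% of all genes did not overlap. These groups also serve as the controls of the progerin comparisons. The called gene was Sema7a (ENSMUSG00000038264, chromosome 9, 57940112 to 57962865), a lipid-anchored semaphorin that binds integrins and Plxnc1. It had 37.1, 53.6, 38.6 and 45.2 CPM in wild-type pools and 63.9, 60.0, 72.4 and 66.5 CPM in LCS pools, all higher. The log2 value was 0.59 ± 0.10 (edgeR adjusted p = 0.018). The call ended when only these 8 pools were fitted (adjusted p = 0.057) and without wild-type pool 1, 3 or 4 or LCS pool 1 or 3 (0.054 to 0.078). Neither progerin comparison called Sema7a (-0.11 ± 0.11 and 0.07 ± 0.11, adjusted p = 0.43 and 0.66). Its ubiquitous progerin pools stood at 38.5 to 44.1 CPM and its VSMC progerin pools at 62.8 to 76.9 CPM.

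**Figure D3:**
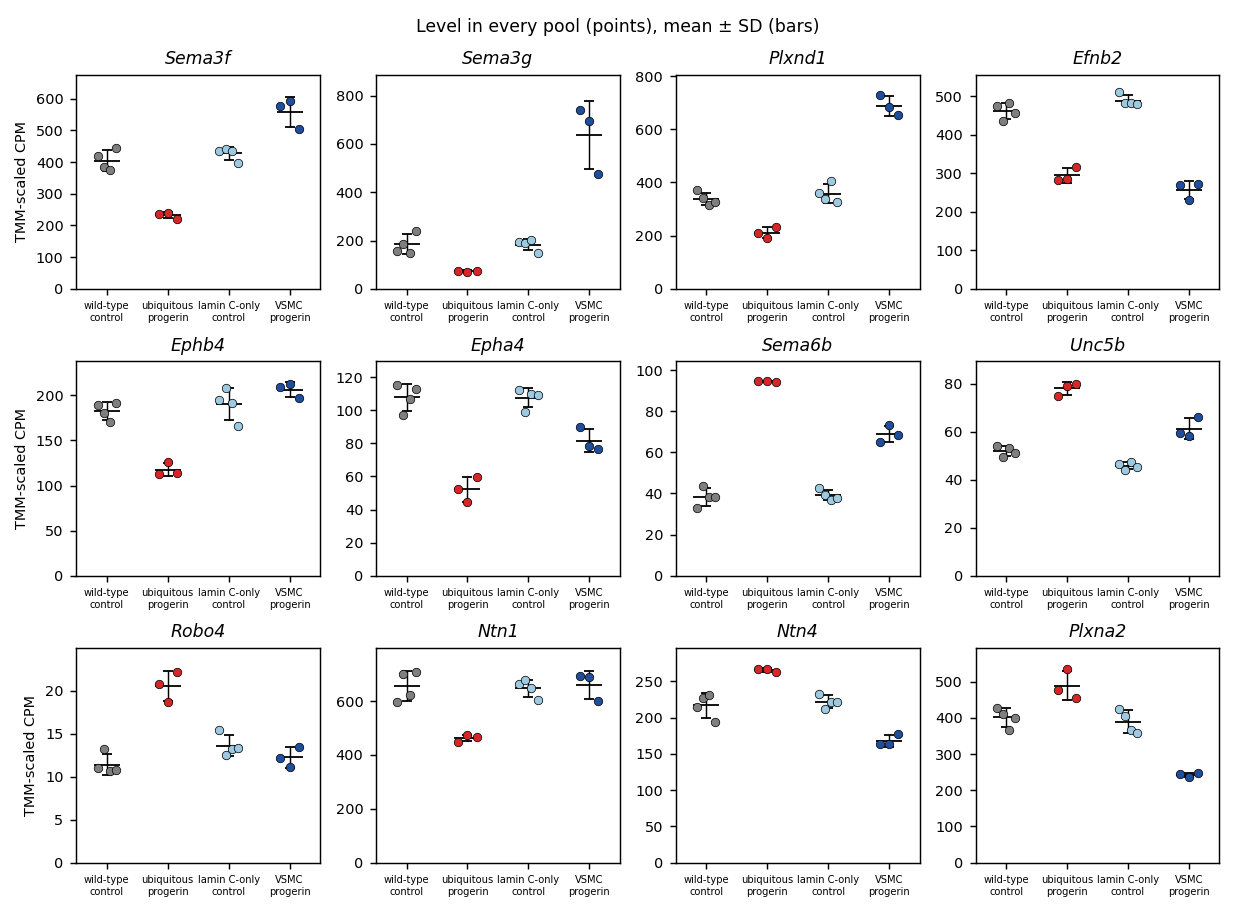
TMM-scaled CPM of 12 guidance genes in each of the 14 pools (points, coloured by group) with mean ± SD as bars, each vertical axis from 0. Sema3f, Sema3g and Plxnd1 fall below control in ubiquitous progerin and rise above it in VSMC progerin, Efnb2 and Epha4 lie below control in both, and Sema6b and Unc5b above it in both.

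On the ephrin side, Efnb2 and its receptor Ephb4 fell together with ubiquitous progerin, and Efnb2 alone of the pair was called with VSMC progerin. Efnb2 (ENSMUSG00000001300, chromosome 8, 8617434 to 8661242) had 474, 436, 481 and 455 CPM in wild-type pools and 281, 285 and 315 CPM in ubiquitous progerin. In the second model it had 509, 483, 481 and 479 CPM in control and 269, 230 and 271 CPM in VSMC progerin, again with wide gaps between the groups. It fell by 0.65 ± 0.06 (edgeR adjusted p = 4.9e-08) and by 0.93 ± 0.07 (adjusted p = 7.6e-10). The difference of 0.28 ± 0.09 (adjusted p = 0.017) was no longer called under upper-quartile scaling (0.075), without ubiquitous progerin pool 3 (0.093) or without VSMC progerin pool 2 (0.062).

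Ephb4 (ENSMUSG00000029710, chromosome 5, 137350109 to 137378669) had 189, 180, 170 and 192 CPM in wild-type pools and 113, 126 and 114 CPM in ubiquitous progerin. Its pools in VSMC progerin, 209, 213 and 197 CPM, met the top of those in LCS pools, 195, 209, 192 and 166 CPM. Ephb4 fell by 0.63 ± 0.07 with ubiquitous progerin (edgeR adjusted p = 2.8e-07), and its value with VSMC progerin was 0.11 ± 0.07 (adjusted p = 0.21; 0.19, adjusted p = 0.030, under upper-quartile scaling). The difference was -0.75 ± 0.10 (adjusted p = 4.3e-06). The ratio of Efnb2 to Ephb4 per kb was 1.60 to 1.91 in wild-type pools, 1.54 to 1.86 in ubiquitous progerin and 1.57 to 1.95 in LCS pools. It was 0.733 to 0.933 in VSMC progerin, below every other pool. Ephb4 shares 33 exon bases (0.7%) with Zan on the other strand, and whether the counting used strand is not stated.

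Of the EphA receptors 6 of 9 were tested, and the 3 with a mean above 2 CPM in any group fell in both models. Epha4 (ENSMUSG00000026235, chromosome 1, 77367185 to 77515088), which binds ephrins of both classes, had 115, 97.0, 107 and 113 CPM in wild-type pools and 52.1, 44.6 and 59.7 CPM with ubiquitous progerin. It had 112, 98.9, 110 and 109 CPM in LCS pools and 89.9, 78.5 and 76.7 CPM in VSMC progerin. No pools overlapped, and it fell by 1.05 ± 0.09 (edgeR adjusted p = 6.5e-09) and 0.40 ± 0.09 (adjusted p = 0.00095), with a difference of -0.65 ± 0.12 (adjusted p = 0.00021).

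Epha2, the ephrin-A1 receptor of inflamed endothelium, had 44.4, 49.2, 49.8 and 52.9 CPM in wild-type pools and 23.9, 25.2 and 22.7 CPM with ubiquitous progerin. It had 47.0, 53.1, 45.8 and 50.2 CPM in LCS pools and 26.9, 30.8 and 30.1 CPM in VSMC progerin. All 6 progerin pools lay below all 8 control pools. It fell by 1.04 ± 0.08 (edgeR adjusted p = 2.2e-09) and 0.74 ± 0.08 (adjusted p = 3.3e-07). The difference, -0.29 ± 0.11 (adjusted p = 0.041), was no longer called with library totals only (0.11) or in 9 of 14 fits that left out 1 pool. Epha1 went from 14.2 to 16.4 CPM in wild-type pools to 7.84 to 10.6 CPM, and from 12.7 to 16.8 CPM in LCS pools to 4.22 to 7.50 CPM. These were falls of 0.83 ± 0.17 (adjusted p = 0.00030) and 1.19 ± 0.17 (adjusted p = 1.3e-05). It shares 236 exon bases (6.0%) with Zyx on the other strand.

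Their A ephrins moved apart from each other. Efna1 (ENSMUSG00000027954, chromosome 3, 89271733 to 89281142), a ligand of Epha2 that is induced by inflammation, had 64.6, 60.5, 68.3 and 60.2 CPM in wild-type pools and 88.4, 77.9 and 85.1 CPM in ubiquitous progerin. In LCS pools it had 68.0, 80.3, 81.8 and 69.2 CPM and in VSMC progerin 118, 130 and 133 CPM. Both progerin groups lay above their controls, and Efna1 rose by 0.40 ± 0.08 (edgeR adjusted p = 0.00014) and 0.76 ± 0.07 (adjusted p = 8.4e-08), with a difference of -0.36 ± 0.11 (adjusted p = 0.0095). Efna5, the most abundant A ephrin per kb in wild-type pools, had 179, 164, 172 and 168 CPM there and 113, 111 and 109 CPM in ubiquitous progerin, a fall of 0.62 ± 0.06 (adjusted p = 4.8e-08). With VSMC progerin it had 137, 148 and 151 CPM, just under the 155, 179, 166 and 180 CPM of its control. That fall of 0.22 ± 0.06 (adjusted p = 0.0056) lost its call under upper-quartile scaling (0.054) and without VSMC progerin pool 1 (0.071).

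Several low Eph and ephrin genes rose with VSMC progerin. Efnb1, a B ephrin of the X chromosome, had 6.52, 7.02, 6.38 and 8.22 CPM in wild-type pools and 3.41, 3.93 and 3.32 CPM with ubiquitous progerin. It had 7.96, 9.39, 9.46 and 8.70 CPM in LCS pools and 14.7, 15.7 and 11.7 CPM in VSMC progerin. It fell by 0.99 ± 0.16 (edgeR adjusted p = 2.4e-05) and rose by 0.66 ± 0.14 (adjusted p = 0.00095), a difference of -1.65 ± 0.21 (adjusted p = 3.1e-06). Ephb3, an EphB receptor, had 0.894, 0.622, 0.895 and 0.889 CPM in LCS pools and 5.84, 6.28 and 4.07 CPM in VSMC progerin, a rise of 2.7 ± 0.33 (adjusted p = 1.8e-06). Its ubiquitous progerin value was -0.52 ± 0.34 (adjusted p = 0.22). Ephb6, an Eph receptor without kinase activity, fell in both models, from 16.6 to 18.3 CPM to 10.2 to 14.0 CPM and from 18.3 to 20.1 CPM to 13.3 to 15.5 CPM. The falls were 0.48 ± 0.11 (edgeR adjusted p = 0.0011) and 0.45 ± 0.11 (adjusted p = 0.0027). With VSMC progerin 4 of 6 fibroblast, 3 of 4 adipocyte and 3 of 4 lymphatic markers were called higher, where 19.0% of all tested genes were. The adipocyte sums were 16.2 to 99.3 CPM in LCS pools and 120 to 201 CPM with VSMC progerin, and the lymphatic sums 76.7 to 87.2 and 133 to 146 CPM. Flt4 made up most of the lymphatic sums (means 70.7 and 123 CPM). The lymphatic marker Prox1 was not called (-1.05 ± 0.90, edgeR adjusted p = 0.37), at means of 0.41 and 0.20 CPM. The part of these cell types in these results was not tested.

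Close to Lmna itself, 4 members lie within 1000 kb of that gene (chromosome 3, 88480147 to 88509956), and all 4 rose with VSMC progerin. Lmna is the gene altered in the progerin and LCS mice. VSMC progerin and LCS pools carry the same altered Lmna alleles, apart from the switch by Cre. Sema4a is 19.0 kb before Lmna, and Efna1, Efna3 and Efna4 follow each other 762, 804 and 823 kb after it. Efna3 and Efna4 were under 1 CPM in every LCS pool, so that their folds rest on few counts. Efna4 went from 0.196, 0.186, 0.0542 and 0.0613 CPM in LCS pools to 2.24, 3.90 and 2.7 CPM in VSMC progerin, a rise of 4.53 ± 0.61 (edgeR adjusted p = 5.9e-06). Efna3 went from 0.531, 0.528, 0.515 and 0.245 CPM to 2.09, 1.84 and 1.65 CPM, a rise of 2.02 ± 0.73 (adjusted p = 0.031) that lost its call in 6 of 7 fits that left out 1 pool (adjusted p 0.052 to 0.078). The ubiquitous progerin values were 0.87 ± 0.60 and -0.93 ± 0.85 (adjusted p = 0.23 and 0.37), and the difference was -3.66 ± 0.86 for Efna4 (adjusted p = 0.0017) and -2.96 ± 1.12 for Efna3 (adjusted p = 0.038, no longer called in 10 of 14 such fits). Of the 62 other genes tested in that window, 24.2% rose and 25.8% fell with VSMC progerin, and 22.6% rose and 37.1% fell with ubiquitous progerin. Between the controls, whose Lmna alleles differ, 1 of the 62 rose and 1 fell. That is 1.61% each, against 0.0911% and 0.0841% of all tested genes. Lmna rose by 0.78 ± 0.07 with VSMC progerin, from 132 ± 6.70 (n = 4) to 227 ± 25.6 CPM (SD, n = 3), and its ubiquitous progerin value was -0.02 ± 0.07 (adjusted p = 0.80).

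**Figure D4:**
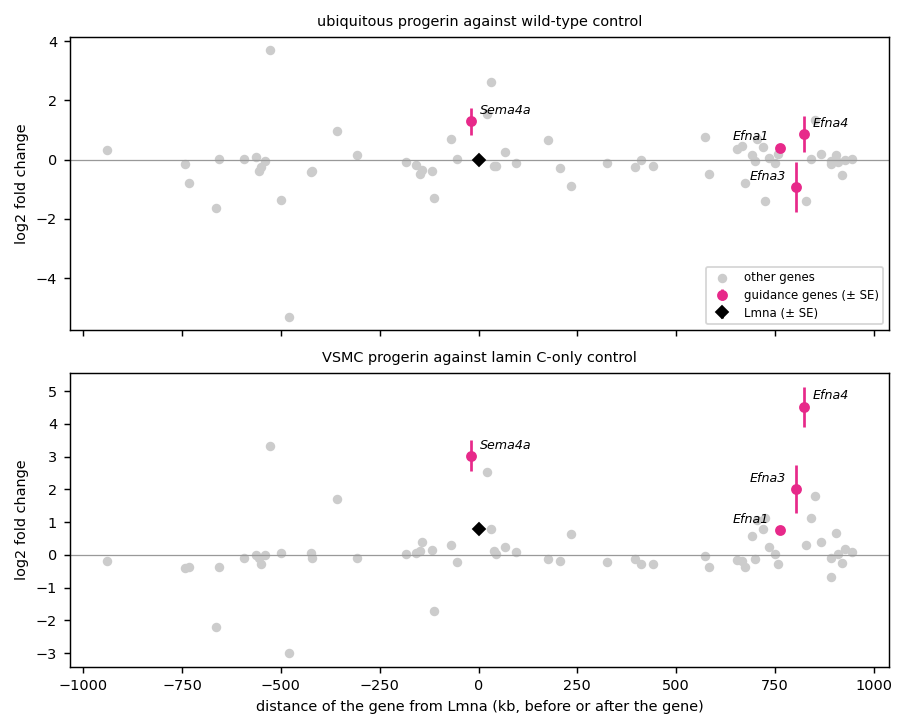
Log2 fold change of tested genes within 1000 kb of Lmna by distance in kb, with ubiquitous progerin above and VSMC progerin below; pink points with SE bars are guidance genes, grey points other genes and the black diamond Lmna. Sema4a, Efna1, Efna3 and Efna4 are all above 0 with VSMC progerin, at 0.76 to 4.53, where the grey points fall on both sides of 0.

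Netrins shifted between their abundant members. Ntn1 (ENSMUSG00000020902, chromosome 11, 68209364 to 68400823), which can repel leukocytes through Unc5b, had 598, 700, 623 and 708 CPM in wild-type pools and 449, 474 and 467 CPM in ubiquitous progerin, all lower. It fell by 0.50 ± 0.07 (edgeR adjusted p = 3.5e-06). With VSMC progerin its pools (695, 688 and 601 CPM) lay among those of control (663, 678, 650 and 604 CPM; 0.03 ± 0.07, adjusted p = 0.78). The difference was -0.53 ± 0.10 (adjusted p = 0.00014). Ntn4 (ENSMUSG00000020019, chromosome 10, 93640681 to 93747207), a netrin that binds laminins of the basement membrane, had 215, 227, 231 and 194 CPM in wild-type pools and 267, 268 and 263 CPM in ubiquitous progerin. In LCS pools it had 233, 211, 222 and 222 CPM and in VSMC progerin 164, 163 and 178 CPM. It rose by 0.29 ± 0.06 (adjusted p = 0.00046) and fell by 0.40 ± 0.06 (adjusted p = 3.5e-05), a difference of 0.69 ± 0.09 (adjusted p = 2.5e-06).

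The ratio of Ntn1 to Ntn4 per kb was 1.61 to 2.18 in wild-type pools and 1.00 to 1.06 in ubiquitous progerin. It was 1.62 to 1.91 in LCS pools and 2.01 to 2.53 in VSMC progerin. Ntn3, a low netrin, had 8.75, 8.36, 10.6 and 10.3 CPM in wild-type pools and 2.52, 3.74 and 2.41 CPM in ubiquitous progerin, a fall of 1.72 ± 0.19 (edgeR adjusted p = 2.5e-07). Its rise with VSMC progerin, from 7.71, 10.1, 8.73 and 8.03 to 15.4, 11.1 and 10.7 CPM (0.52 ± 0.17, adjusted p = 0.020), was no longer called without VSMC progerin pool 1, the 15.4 CPM pool (0.14), or LCS pool 1 (0.061). The difference between the models was -2.24 ± 0.26 (adjusted p = 6.4e-07). Ntn3 shares 89 exon bases (1.7%) with Tbc1d24 on the same strand, so part of its counts is uncertain.

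Unc5b (ENSMUSG00000020099, chromosome 10, 60762593 to 60831581), the endothelial netrin receptor, had 54.2, 49.6, 53.3 and 51.0 CPM in wild-type pools and 75.0, 79.1 and 79.9 CPM in ubiquitous progerin. It had 46.6, 44.0, 47.4 and 45.3 CPM in LCS pools and 59.5, 58.3 and 66.1 CPM in VSMC progerin. Each progerin group lay above its control, and Unc5b rose by 0.58 ± 0.06 (edgeR adjusted p = 1.3e-07) and 0.42 ± 0.06 (adjusted p = 1.8e-05). The difference of 0.17 ± 0.09 was not called (adjusted p = 0.14), but was with library totals only (0.24, adjusted p = 0.033). With ligand and receptor moving apart, Ntn1 per Unc5b, both per kb, had a median of 12.8 in wild-type pools and 5.97 in ubiquitous progerin. The medians were 13.9 and 11.7 in LCS pools and VSMC progerin. Unc5d, a receptor known from neurons, had 1.63, 1.83, 1.40 and 0.826 CPM in wild-type pools and 8.56, 7.75 and 7.92 CPM in ubiquitous progerin (2.51 ± 0.60, adjusted p = 0.0026). In VSMC progerin its pools had 0.331, 0 and 1.08 CPM against 1.54, 0.591, 1.30 and 1.99 CPM, a value of -1.51 ± 0.69 that missed the threshold (adjusted p = 0.094) and passed it without VSMC progerin pool 3 (-3.09, adjusted p = 0.0024). The models differed by 4.02 ± 0.92 (adjusted p = 0.0024). Schwann cell and neuron markers (6 genes) summed to 6.76 to 9.43 CPM in wild-type pools, 14.1 to 17.0 with ubiquitous progerin, 7.93 to 10.4 in LCS pools and 22 to 32.5 with VSMC progerin, and lymphocyte markers (6 genes) to at most 6.40 CPM in any pool.

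Robo4 (ENSMUSG00000032125, chromosome 9, 37401897 to 37415115), an endothelial Robo that stabilises vessels, had 11, 13.2, 10.6 and 10.8 CPM in wild-type pools and 20.8, 18.7 and 22.2 CPM in ubiquitous progerin, and rose by 0.85 ± 0.12 (edgeR adjusted p = 3.7e-06) with no overlap. VSMC progerin pools (12.2, 11.1 and 13.5 CPM) overlapped LCS pools (15.4, 12.5, 13.2 and 13.3 CPM), at -0.16 ± 0.12 (adjusted p = 0.31), and the effects differed by 1.01 ± 0.17 (adjusted p = 5.5e-05). Slit3, the most abundant Slit per kb, had 3.22, 3.20, 4.00 and 3.65 CPM in wild-type pools and 3.44, 7.12 and 7.05 CPM in ubiquitous progerin, where 1 pool lay among the controls. Its rise of 0.74 ± 0.29 (adjusted p = 0.040) lost its call in 5 of 7 fits that left out 1 pool, without wild-type pool 1, 2 or 4 or ubiquitous progerin pool 2 or 3 (0.061 to 0.17), and with limma on the deposited log2 values (0.070). Slit2, the Robo ligand studied most in vessels, fell with ubiquitous progerin from 5.14 to 8.76 CPM to 3.67 to 4.64 CPM (-0.68 ± 0.21, adjusted p = 0.0085), and its value with VSMC progerin was -0.38 ± 0.20 (adjusted p = 0.14). Unc50, matched by name only, rose from 48.7 to 57.7 CPM to 61.9 to 64.6 CPM (0.21 ± 0.08, adjusted p = 0.022), a call that ended without wild-type pool 1 (0.071) or ubiquitous progerin pool 1 (0.068).

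The partner genes, 64 co-receptors, proteases and intracellular effectors of these pathways that belong to none of the families, were counted in the same way. Of the 56 tested, 12 rose and 23 fell with ubiquitous progerin (62.5% called against 54.6% of all tested genes; median log2 value -0.15 against -0.00). With VSMC progerin 19 rose and 17 fell (64.3% against 42.0%; median 0.04 against -0.03). Between the controls 1 fell, Arhgef11, which acts downstream of B plexins (adjusted p = 0.045), and the difference of effects was called for 10 higher and 19 lower (51.8% against 44.2%).

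Adam10, the protease that cuts ephrins and Robo receptors, stood at 364 ± 23.1 CPM in wild-type pools (SD, n = 4), 192 ± 6.24 in ubiquitous progerin (n = 3), 384 ± 22.9 in LCS pools (n = 4) and 420 ± 30.4 in VSMC progerin (n = 3). It fell by 0.92 ± 0.07 with ubiquitous progerin (edgeR adjusted p = 6.2e-10), and the models differed by -1.05 ± 0.09 (adjusted p = 1.8e-08). Arhgef15, an endothelial exchange factor downstream of Eph receptors, stood at 305 ± 35.0, 142 ± 7.53, 311 ± 14.9 and 315 ± 31.7 CPM, and fell by 1.1 ± 0.08 with ubiquitous progerin (adjusted p = 1.2e-09). Nck1, an adaptor of Eph receptors and Robo, stood at 128 ± 17.3, 59.0 ± 4.24, 127 ± 9.44 and 127 ± 9.36 CPM, and fell with ubiquitous progerin (adjusted p = 8.4e-09). Itgb1, the integrin chain that binds Sema7a, stood at 1197 ± 28.8, 818 ± 10.1, 1234 ± 57.6 and 1303 ± 42.8 CPM, and fell there too (adjusted p = 2.5e-08). None of these 4 was called with VSMC progerin.

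Dpysl3, Ptprc and Rgma moved the same way in both models. Dpysl3, a collapsin response mediator that carries semaphorin signals to the cytoskeleton, stood at 24.1 ± 1.92, 55.6 ± 2.90, 26.3 ± 1.67 and 63.0 ± 2.12 CPM in the order above, and rose by 1.2 ± 0.08 (edgeR adjusted p = 1e-10) and 1.26 ± 0.07 (adjusted p = 7.3e-11). Ptprc, the leukocyte marker CD45, which was listed as a semaphorin-associated surface protein, stood at 4.33 ± 1.04, 35.7 ± 10.04, 5.23 ± 0.689 and 40.2 ± 4.64 CPM, and rose by 3.05 ± 0.19 and 2.94 ± 0.19. Rgma, a Neo1 ligand, stood at 57.4 ± 4.63, 33.5 ± 2.53, 57.6 ± 4.86 and 23.7 ± 4.02 CPM and fell by 0.78 ± 0.10 (adjusted p = 1.7e-06) and 1.28 ± 0.10. Nck2 is named for its fall of 0.78 ± 0.07 with VSMC progerin (edgeR adjusted p = 2.9e-08), and its ubiquitous progerin value is not given here. Of the netrin receptors outside the Unc5 family, Dcc was not tested, with means of at most 0.0124 CPM in any group, and Neo1 was not called.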

How the data were processed

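The authors deposited estimated counts per gene, which need not be whole (12.68% of values were not). Reads were handled with RSEM 1.2.28 and STAR 2.7.10b on GRCm38 after cutadapt 4.1 and Trim Galore 0.6.10, with limma, per the submitters' processing notes. The annotation release and strand setting were not stated. The authors also deposited log2 values for 13034 genes, 48 of them guidance genes, which equalled log2 CPM shifted by 1 constant per library (-0.054 to 0.073) and served as an alternative.

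Counts were rounded and filtered with edgeR's filterByExpr (a total of 15, and a count of 10 in as many libraries as the smallest group holds). The default share of 0.7 of the smallest group acts only on larger groups and had no effect here. Counts were then scaled by TMM and fitted with edgeR 4.0.16 (R 4.3.3, quasi-likelihood, robust) over all 14 libraries with 1 mean per genotype. The SE was taken from the log2 fold change and F, as the size of the first over the root of the second. Genes were called at a Benjamini-Hochberg adjusted p under 0.05 over 14269 genes. CPM per kb used the exon length of GENCODE M21. The steps were also run on simulated data in which few genes changed, as many up as down, in the ubiquitous progerin comparison only. That run cannot show how the steps do where 54.6% of tested genes are called, as in these data. The alternatives used DESeq2 1.42.0, limma 3.58.1, other scalings, no filter, only the groups compared, a replicate block and leaving out each pool.

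The members, partner list and marker lists were chosen with earlier results of these data known. Members named by rule (34) were, per comparison, up to 8 higher and 8 lower called genes with the largest fold change and a mean of at least 1 CPM in either group, the most abundant of each family, and Efnb2, Ephb4, Robo4, Unc5b and Plxnd1; of the partners, up to 4 with the smallest p.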

Additional observations from a re-analysis of the deposited data

Results flagged for a closer look

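In 5 of the 68 groups of 4 control pools looked at, 1 pool stood apart from the other 3 by Dixon's criterion, which chance meets in about 1 of 20 groups. Efna3 had 0.245 CPM in LCS pool 4 where the others had 0.515 to 0.531, and Ephb3 had 0.622 CPM in LCS pool 2 where the others had 0.889 to 0.895. Efnb2 had 509 CPM in LCS pool 1 against 479 to 483, Sema3f had 398 CPM in LCS pool 4 against 435 to 440, and Robo4 had 13.2 CPM in wild-type pool 2 against 10.6 to 11. The calls of Ephb3, Efnb2 and Sema3f with VSMC progerin and of Robo4 with ubiquitous progerin held without each pool in turn, and that of Efna3 did not.

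For 26 of the named members the ubiquitous progerin effect differed from the VSMC progerin effect by edgeR's test of the difference itself. The log2 difference, ubiquitous minus VSMC, was higher for 8. These were Unc5d (4.02), Robo4 (1.01), Plxna2 (0.96), Sema6c (0.75), Ntn4 (0.69), Sema6b (0.49), Unc50 (0.31) and Efnb2 (0.28). It was lower for 18. Among the semaphorins and plexins these were Sema3g (-3.11), Sema4a (-1.74), Sema3d (-1.70), Sema3c (-1.66), Plxnd1 (-1.62), Sema3f (-1.19), Plxna3 (-0.87) and Plxna4 (-0.77). Among the ephrins and their receptors they were Efna4 (-3.66), Ephb3 (-3.22), Efna3 (-2.96), Efnb1 (-1.65), Ephb4 (-0.75), Epha4 (-0.65), Efna5 (-0.40) and Epha2 (-0.29), and among the netrins Ntn3 (-2.24) and Ntn1 (-0.53).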

How the results depend on the processing

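No value that was called, as reported or in the alternative run, reversed its direction. Changes of sign in values called in neither were not counted. Counts of called guidance genes stayed within 1.5 times the reported value under every alternative run, except between the 2 control groups, where the single higher call (Sema7a) became 0 when only the groups compared were fitted, 0 with the replicate block and 0 to 1 when 1 pool was left out. DESeq2 gave 17 higher and 20 lower with ubiquitous progerin, 19 and 11 with VSMC progerin and 31 called differences, as reported; limma on the deposited log2 values gave 14 and 20, 17 and 12, and 30. Of 2600 refits of 156 gene and comparison pairs, 2486 kept their side of the threshold, 105 lost and 9 gained a call. Leaving out each pool in turn left 31 of 37 ubiquitous progerin calls, 25 of 30 VSMC progerin calls and 24 of 31 differences called in every fit. Calls lost in this way also include Sema4b, Sema4c and Plxnb3 (ubiquitous progerin), Ephb2 (VSMC progerin), and Sema4a, Plxna1 and Unc50 (difference); the cause was not tested.

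Pool numbers gave no sign of pairing the samples, and the labels state none. Over the tested genes, same-numbered pools of the groups compared had deviations correlated at -0.046 to 0.023. Few pools correlated best with their own number (0 of 3, 1 of 3 and 1 of 4). With 3 or 4 pools in a group, these values cannot show that no pairing exists. With the replicate block, 17 rose and 21 fell with ubiquitous progerin, 19 and 11 with VSMC progerin, and 30 differences were called. Efna3 lost its VSMC progerin call (adjusted p = 0.057) and its difference (0.071), Sema7a its call (0.10), and Sema3c gained one with VSMC progerin (1.51, adjusted p = 0.0063).

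Genes under about 1 CPM rest on few counts, and the strand setting of the counting is unknown.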
